A study of Mus musculus with 9 samples.

Results

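The genes described here are 10 regulators of the G1 phase of the cell cycle in CD4+ T cells: the cyclin genes Ccnd2, Ccnd3, Ccne1 and Ccne2, the kinase genes Cdk2, Cdk4 and Cdk6, and the inhibitor genes Cdkn1b, Cdkn2c and Cdkn2d. They were taken by symbol from a table of read counts for 39017 Ensembl gene IDs, and all 10 were in the table and passed the filter on low counts that left 14693 genes. RNA had been sequenced from lymph node CD4+ T cells of male C57BL/6 mice, in 5 WT samples (replicates 1, 3, 4, 5 and 9) and 4 cKO samples (replicates 2, 6, 7 and 8). Kdm6a was floxed in all 9 (floxed/y). WT samples had no Cre (CD4-Cre -/-) and cKO samples had it (CD4-Cre +/-), driven by Cd4 regulatory sequence, so effects of Kdm6a loss and of Cre itself cannot be told apart here. The study asked how the loss of Kdm6a, an X-linked gene for a demethylase of histone H3 lysine 27, changes the transcriptome of these cells. Ages are not stated. Since no label ties each library to its own mouse, p-values describe only how these libraries vary, and some of that spread may be technical. Whether the cells were stimulated is unclear, since the labels mention none and "stim" stands in the name of the table.

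In a T cell that enters the cycle, mitogen and cytokine signals raise the D-type cyclins, which bind Cdk4 and Cdk6 and start the phosphorylation of the retinoblastoma protein. This releases the E2F transcription factors, whose targets include the E-type cyclins, and cyclin E with Cdk2 carries the cell into S phase. Members of the INK4 family of inhibitors, among them p18 (Cdkn2c) and p19 (Cdkn2d), bind Cdk4 and Cdk6, whereas the CIP/KIP inhibitor p27 (Cdkn1b) binds cyclin and kinase complexes and is abundant in resting T cells.

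Total counts per sample ran from 20587482 to 26387488, and the 10 genes held between 805 and 37235 counts in any sample. Kdm6a itself was at 60.04 to 63.8 CPM (counts scaled to library size with TMM factors) in WT and 41.5 to 44.8 CPM in cKO, with no overlap, and fell by 31.9% in cKO (edgeR adjusted p = 2.89e-05). These counts cover the whole gene and do not single out the floxed exons. The samples carried the T cell genes Cd4 (873 CPM in WT, 957 in cKO) and Cd247 (289 and 264 CPM), and the 6 T cell markers summed to between 1900 and 2070 CPM in every sample, with 1 called higher in cKO, 2 lower and 3 not called. Of 42 marker genes of other cell types, 17 passed the filter, 1 of them was called higher in cKO (Cd8b1) and 2 lower (Cd79b and Itgam). Summed over each list, the 2 CD8 markers were at 11.9 to 15.1 CPM in WT and 15.1 to 19.1 in cKO, the 6 macrophage and monocyte markers at 16.0 to 20.3 and 17.7 to 21.5, and the 8 B and plasma cell markers at 5.96 to 8.60 and 5.99 to 8.95. The 4 gamma-delta T cell markers summed to 3.82 to 5.20 CPM in WT and 3.89 to 8.73 in cKO, the 5 dendritic cell markers to 2.21 to 3.57 and 2.69 to 3.75, and the 4 natural killer cell markers to 0.0764 to 0.441 and 0.134 to 2.19. The 4 erythroid markers were at 0.425 to 1.03 CPM in WT and 0.447 to 0.816 in cKO, and the 5 stroma and vessel markers at 0.441 to 0.859 and 0.192 to 0.787. The 4 neutrophil markers, Hbb-bs and Clec9a had 0 counts in every sample, which allows up to 0.144 CPM in the shallowest library. Mitochondrial transcripts took 2.38% ± 0.0572 (SD, n = 5) and 2.59% ± 0.138 (SD, n = 4) of counts, WT then cKO. The gamma-delta gene Tcrg-C2 was highest in cKO 2, at 3.92 CPM against at most 2.19 in any other sample. The natural killer gene Klre1 was also highest in cKO 2, at 1.35 CPM against at most 0.236. Both the CD8 markers and the mitochondrial share were on average higher in cKO beside every result that follows. The part of all these differences in those results was not tested.

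RefSeq promoter windows on GRCm38.p6 were at hand for 8 of the 10 genes. Below are the 250 bases before the annotated start of the cyclin and the inhibitor gene with the smallest p-values (Ccne1 and Cdkn2d, both lower in cKO, with GC boxes in capitals), of Cdk4 (with E-boxes in capitals, since Myc, which binds them, is among the genes measured) and of Cdk2 (with E2F-type motifs in capitals, since several E2F genes differed between genotypes). Each runs 5′ to 3′ on the strand of its gene.
Ccne1: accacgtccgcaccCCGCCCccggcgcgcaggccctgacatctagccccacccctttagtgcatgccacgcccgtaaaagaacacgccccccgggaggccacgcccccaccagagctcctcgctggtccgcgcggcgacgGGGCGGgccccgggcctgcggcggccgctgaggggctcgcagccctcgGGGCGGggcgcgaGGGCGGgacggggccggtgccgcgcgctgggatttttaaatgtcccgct
Cdkn2d: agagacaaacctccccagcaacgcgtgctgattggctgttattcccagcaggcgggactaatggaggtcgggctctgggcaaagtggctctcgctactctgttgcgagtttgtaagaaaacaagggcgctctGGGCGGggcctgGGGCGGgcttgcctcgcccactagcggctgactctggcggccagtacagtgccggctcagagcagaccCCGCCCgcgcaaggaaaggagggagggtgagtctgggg
Cdk4: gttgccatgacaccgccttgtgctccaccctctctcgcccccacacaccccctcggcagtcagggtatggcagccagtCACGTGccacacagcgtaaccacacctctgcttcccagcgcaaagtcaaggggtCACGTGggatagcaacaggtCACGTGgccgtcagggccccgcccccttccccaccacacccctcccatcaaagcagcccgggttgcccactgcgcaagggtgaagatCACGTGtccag
Cdk2: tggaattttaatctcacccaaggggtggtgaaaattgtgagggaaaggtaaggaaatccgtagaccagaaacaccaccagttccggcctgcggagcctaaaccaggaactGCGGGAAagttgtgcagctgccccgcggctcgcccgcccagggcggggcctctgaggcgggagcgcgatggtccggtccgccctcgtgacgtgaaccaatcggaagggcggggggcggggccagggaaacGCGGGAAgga
The windows lie at chr7:38107491-38107740 (minus strand, Ccne1), chr9:21291210-21291459 (minus strand, Cdkn2d), chr10:127063285-127063534 (plus strand, Cdk4) and chr10:128705052-128705301 (minus strand, Cdk2). The starts used here are those of RefSeq, and some lie inside the GENCODE M21 gene positions given below. By GENCODE, Cdkn2d reaches 21291407 and Ccne1 reaches 38107534, so both windows lie partly inside the gene. For Cdkn2d, that part holds all the GC boxes in capitals. The GC box, GGGCGG on either strand, was found 4 times before the RefSeq start of Ccne1 and 3 times before that of Cdkn2d. It was also found 5 times before Cdk2 and 3 times before Cdkn2c, whose RNA did not pass the test described below, and in 8 of the 10 windows of the members. Of 32851 windows of the same length, 32.7% held the motif at least once and 8.47% at least 3 times. The motif holds only G and C, and the windows of members with at least 3 matches were 63.2% to 77.2% GC. Windows were not matched for GC content, so these shares do not show that the motif is more frequent than base content would give. The E-box CACGTG, which reads the same on both strands, stood 172, 118, 98 and 11 bases before the start of Cdk4. Of the 10 windows of the members, 2 held it, the other being that of Cdk6, 220 bases before the start. Of all 32851 windows, 6.02% held it at least once and 7 windows held 4 or more. The E2F form TTCCCGC, searched on both strands, began 140 and 10 bases before the start of Cdk2, against 3.82% of windows with at least 1 match and 0.180% with at least 2. That form was also found once before Cdkn2c, the other E2F form searched, TTGGCGC, in none of the 10 windows of the members, and neither form before Ccne1 in this window. A forkhead motif, TGTTTAC, was matched in 1 of the 10 windows, before the more distant start of Ccnd3, and in 3.17% of all windows. A CCAAT box (CCAAT or ATTGG) was found before Cdkn1b, Cdkn2d, Cdk2 and Ccnd3, and in 33.8% of all windows. A match is a string of letters and not a measured site.

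In the cKO samples, 1 of the 10 genes rose and 3 fell. Ccnd2 was 16.1% higher, Ccnd3 13.6% lower, Ccne1 15.1% lower and Cdkn2d 30.6% lower, while Ccne2, the 3 kinase genes, Cdkn1b and Cdkn2c did not pass the test. These calls come from edgeR's quasi-likelihood test with Benjamini-Hochberg adjustment over all 14693 genes and a threshold of 0.05. By that rule 15.8% of all genes were called, 7.0% higher and 8.82% lower in cKO (1028 and 1296 genes, or 1265 and 1068 with upper-quartile scaling). At an unadjusted p under 0.05 the same 4 genes passed, and 31.1% of all genes did. Only Cdkn2d was both called and changed by at least 1.2-fold, as were 9.82% of all genes. The groups did not overlap in 3 of the 10 genes (Ccnd2, Ccne1 and Cdkn2d), and 15.9% of all genes showed no overlap. The median log2 difference of the 10 genes was -0.09, beside 0.0012 for all genes tested. The changes of Ccnd2, Ccnd3 and Ccne1 were smaller than the median change of the called genes, 1.26-fold, and that of Cdkn2d was larger. RNA of a cell population was measured, so a change in the share of cells at a given stage of the cycle and a change in the RNA per cell cannot be told apart.

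**Figure D1:**
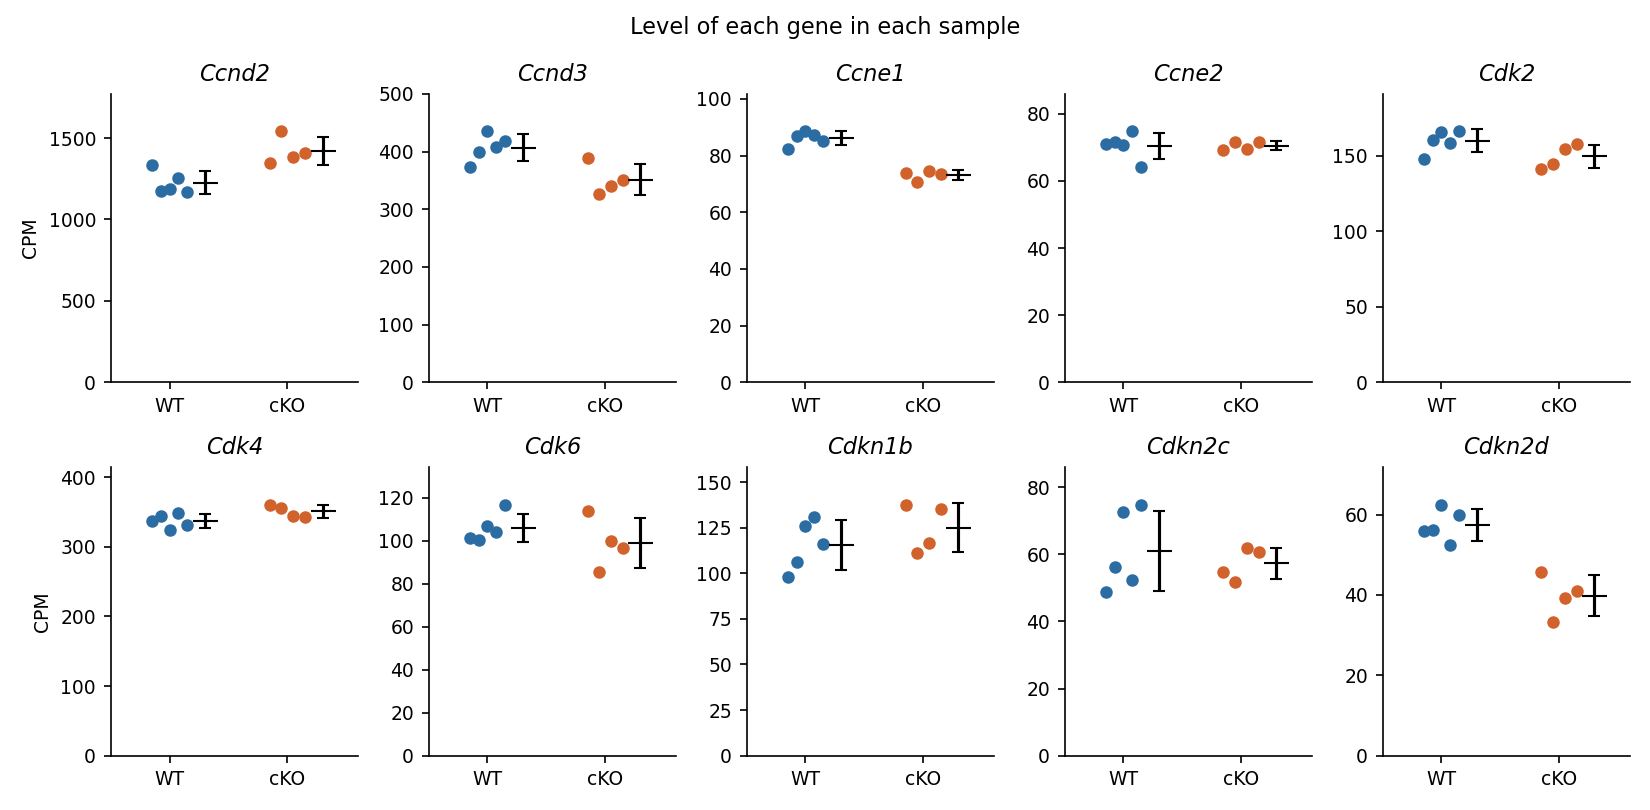
Level of each of the 10 genes in CPM (vertical axis, starting at 0) in 5 WT samples (blue) and 4 cKO samples (orange), 1 point per sample in the order of the replicate numbers, with the mean and SD in black. The points of the genotypes are apart in Ccnd2, Ccne1 and Cdkn2d, and in Ccnd3 they overlap through WT 1 (373 CPM) and cKO 2 (389 CPM).

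The D-type cyclins changed in opposite directions. Ccnd2 encodes cyclin D2, which is induced by mitogens and cytokines in lymphocytes. WT samples 1, 3, 4, 5 and 9 held 1334, 1173, 1187, 1255 and 1169.9 CPM of it, and cKO samples 2, 6, 7 and 8 held 1348, 1542, 1386 and 1408 CPM. All cKO samples were above all WT samples, although WT 1 and cKO 2 lay side by side. Ccnd2 rose from a mean of 1224 ± 70.7 CPM (SD, n = 5) to 1421.0 ± 84.4 CPM (SD, n = 4), a log2 difference of 0.22 (SE 0.050, edgeR adjusted p = 0.0153). Ccnd2 kept its call in each of the 19 other settings, with adjusted p from 0.00180 to 0.0461. Exons of Ccnd2 share 368 bases with 9330179D12Rik on the opposite strand. That gene was at 1.03 CPM in WT and 1.39 in cKO (edgeR adjusted p = 0.121). They also share 372 bases with Gm43126 on the opposite strand, whose ID is not among those counted, so its level is unknown.

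Ccnd3 encodes cyclin D3, which early thymocytes need to expand. Its level was 373, 399, 435, 408 and 418 CPM in WT 1, 3, 4, 5 and 9, and 389, 327, 339 and 351 CPM in cKO 2, 6, 7 and 8. The 3 lowest values were those of cKO 6, 7 and 8, whereas cKO 2 lay above WT 1. Ccnd3 fell by 0.21 on the log2 scale (SE 0.056, edgeR adjusted p = 0.0276), with means of 407 ± 23.3 CPM (SD, n = 5) and 351 ± 26.7 CPM (SD, n = 4). This call was lost without any 1 of WT 4, WT 9, cKO 6, cKO 7 or cKO 8 (adjusted p from 0.0588 to 0.0877), and with offsets for GC and exon length (adjusted p = 0.0660). Exons of Ccnd3 share 361 bases with those of Bysl on the opposite strand (-0.07 on the log2 scale, adjusted p = 0.227), and the strand setting of the authors' counting is not given in the sources used here, so reads from those bases cannot be assigned. Ccnd1, the other D-type cyclin, was low in these cells, at 1.65 CPM in WT and 1.5 in cKO (edgeR adjusted p = 0.713). Ccnd2 (ENSMUSG00000000184) lies on the minus strand of chromosome 6 from 127125162 to 127152193 of mm10, and Ccnd3 (ENSMUSG00000034165) on the plus strand of chromosome 17 from 47505051 to 47599691.

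Of the E-type cyclins, which activate Cdk2 at the entry to S phase, Ccne1 fell and Ccne2 did not pass the test. Ccne1 was at 82.3, 87.1, 88.6, 87.2 and 85.2 CPM in WT 1, 3, 4, 5 and 9 and at 74.0, 70.5, 74.5 and 73.4 CPM in cKO 2, 6, 7 and 8. The lowest WT sample was well above the highest cKO sample. The replicates were tight, with an SD of 2.81% of the mean in WT and 2.46% in cKO, and the log2 difference was -0.24 (SE 0.035, edgeR adjusted p = 0.00210). The call held in all 19 other settings, with adjusted p of at most 0.00927. Ccne2 was at 70.9, 71.6, 70.7, 74.8 and 64.3 CPM in the same WT samples and at 69.1, 71.7, 69.6 and 71.6 CPM in the cKO samples. The cKO values lay inside the range of the WT values, and the means were 70.5 ± 3.84 CPM (SD, n = 5) and 70.5 ± 1.33 CPM (SD, n = 4), with an SE of 0.044 on the log2 difference (adjusted p = 0.993). Whether the 2 genes differ in their response was not tested. With offsets for GC and exon length, the log2 difference of Ccne2, which had the lowest GC content of the 10 genes (35.0%), was -0.09 (adjusted p = 0.176), and that of Ccne1 was -0.21 (adjusted p = 0.00385). Ccne2 shares 609 exonic bases with Ints8 on the opposite strand. Ints8 was at 71.1 CPM in WT and 72.1 in cKO (0.02 on the log2 scale, edgeR adjusted p = 0.737), close to the level of Ccne2. Without the strand setting, reads from those bases cannot be assigned. Ccne1 (ENSMUSG00000002068) lies on the minus strand of chromosome 7 from 38097984 to 38107534, and Ccne2 (ENSMUSG00000028212) on the plus strand of chromosome 4 from 11191351 to 11204779.

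**Figure D2:**
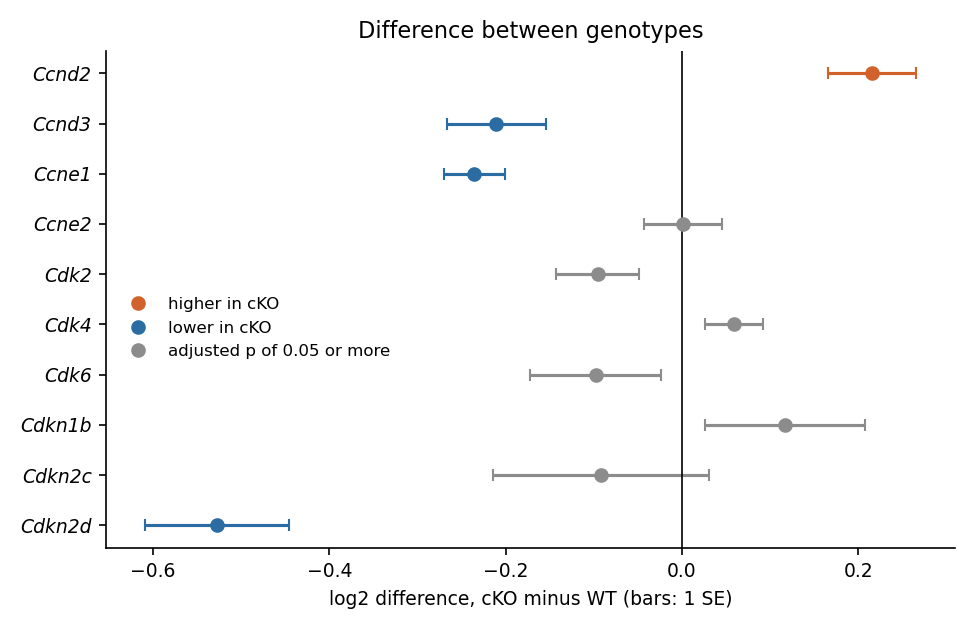
Log2 difference between genotypes (horizontal axis, cKO minus WT; bars are 1 SE) for each of the 10 genes, coloured by the edgeR call. Ccnd2 lies at 0.22, Ccnd3 and Ccne1 at -0.21 and -0.24, and Cdkn2d at -0.53, while the 6 grey genes lie between -0.10 and 0.12.

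None of the 3 kinase genes passed the test, and their differences were at most 0.10 in size on the log2 scale. Cdk4, the main D-cyclin partner by RNA level here, was at 324 to 348 CPM in WT (median 337) and at 361, 356, 344 and 343 CPM in cKO 2, 6, 7 and 8. The ranges overlapped, and the means of 337 ± 9.85 CPM (SD, n = 5) and 351 ± 8.69 CPM (SD, n = 4) differed by 0.06 on the log2 scale (SE 0.033, edgeR adjusted p = 0.252). Cdk4 shares 641 exonic bases with Tspan31 on the opposite strand, which was itself called higher (0.25 on the log2 scale, adjusted p = 0.00490). Also on the opposite strand, Cdk2 shares 34 exonic bases with Pmel (-0.28 on the log2 scale, adjusted p = 0.123). Cdk6 shares 368 with Gm17590, whose ID is not among those counted, so its level is unknown. Cdk6, the other D-cyclin partner, was at 101, 101, 107, 104 and 117 CPM in WT 1, 3, 4, 5 and 9 and at 114, 85.4, 100.1 and 96.4 CPM in cKO 2, 6, 7 and 8. The 3 lowest values were those of cKO 6, 7 and 8, but cKO 2 lay above all WT samples except WT 9 (-0.10 on the log2 scale, SE 0.074, adjusted p = 0.402). Cdk2, the partner of cyclin E, was at 148, 161, 166, 159 and 166 CPM in WT and at 142, 145, 155 and 158 CPM in cKO, in the same order of replicates. Of the WT samples, WT 1 was the only one inside the cKO range, and the log2 difference was -0.10 (SE 0.047, adjusted p = 0.190). Without WT 1 it was -0.12 (adjusted p = 0.0657). Cdk4 (ENSMUSG00000006728) lies on chromosome 10 from 127063534 to 127067920, Cdk2 (ENSMUSG00000025358) on the same chromosome from 128697939 to 128705031, and Cdk6 (ENSMUSG00000040274) on chromosome 5 from 3341485 to 3531008.

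Among the inhibitors, Cdkn2d showed the largest change of the 10 genes. It encodes p19INK4d, which blocks Cdk4 and Cdk6. Its level was 55.9, 56.1, 62.5, 52.5 and 60.0 CPM in WT 1, 3, 4, 5 and 9 and 45.6, 33.3, 39.3 and 41.1 CPM in cKO 2, 6, 7 and 8. Every cKO sample was below every WT sample, with cKO 2 the nearest to them. Cdkn2d fell by 0.53 on the log2 scale (SE 0.082, edgeR adjusted p = 0.00237), with means of 57.4 ± 3.89 CPM (SD, n = 5) and 39.8 ± 5.09 CPM (SD, n = 4). With any 1 sample left out the difference stayed between -0.60 and -0.45, and the call held in all 19 other settings (adjusted p of at most 0.00951).

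Cdkn2c, the gene of the related inhibitor p18INK4c, did not pass the test. It was at 48.8, 56.1, 72.6, 52.4 and 74.7 CPM in WT 1, 3, 4, 5 and 9 and at 54.8, 51.8, 61.7 and 60.6 CPM in cKO 2, 6, 7 and 8. WT 4 and WT 9 stood above all other samples, and the cKO values fell inside the WT range. The WT spread, an SD of 19.6% of the mean, was the widest of the 10 genes, and the log2 difference of -0.09 had an SE of 0.123 (edgeR adjusted p = 0.653). Cdkn1b, the gene of p27KIP1, was at 97.8, 106, 126, 131 and 116 CPM in the same WT samples and at 138, 111, 117 and 135 CPM in the cKO samples. The 2 highest values came from cKO 2 and cKO 8 and the 2 lowest from WT 1 and WT 3, but the ranges overlapped (log2 difference 0.12, SE 0.091, adjusted p = 0.415). Much of the control of p27 acts on the protein, which was not measured. Cdkn2d (ENSMUSG00000096472) lies on the minus strand of chromosome 9 from 21288410 to 21291407, Cdkn2c (ENSMUSG00000028551) on the minus strand of chromosome 4 from 109660876 to 109667189, and Cdkn1b (ENSMUSG00000003031) on the plus strand of chromosome 6 from 134920401 to 134925513.

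Per length, Ccnd2 was the most abundant of the 10 transcripts and Cdk6 the least. Divided by the union of annotated exons, Ccnd2 was at 130 CPM per kilobase ± 7.51 (SD, n = 5) for WT and 151 ± 8.97 (SD, n = 4) for cKO, followed by Cdk4 at 104 and 108 and Ccnd3 at 46.3 and 40.0. No sample of one of these 3 genes reached the level of the next within its genotype. In WT the order went on with Cdkn2d (36.5), Ccne1 (32.3), Cdk2 (25.7), Cdkn1b (25.4), Cdkn2c (22.7), Ccne2 (20.2) and Cdk6 (7.57 CPM per kilobase). The neighbours from Cdk2 to Ccne2 overlapped between samples, while the lowest Cdkn2d sample (33.4) lay just above the highest Ccne1 sample (33.3). In cKO, Cdkn2d stood at 25.3 CPM per kilobase, and overlapped with Cdkn1b (27.5), Ccne1 (27.5) and Cdk2 (24.1). Cdk6 was below the other 9 genes in every sample, at 6.10 to 8.35. Several places depended on the length used. With the longest transcript, coding or not, Cdk2 had rank 4 and Cdkn2d rank 6 in both genotypes. With the longest coding transcript of 2113 bases instead of 8775 exonic bases from several annotated starts, Ccnd3 was at 192 CPM per kilobase in WT, level with Ccnd2 at 193, and at 166 against 224 in cKO.

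**Figure D3:**
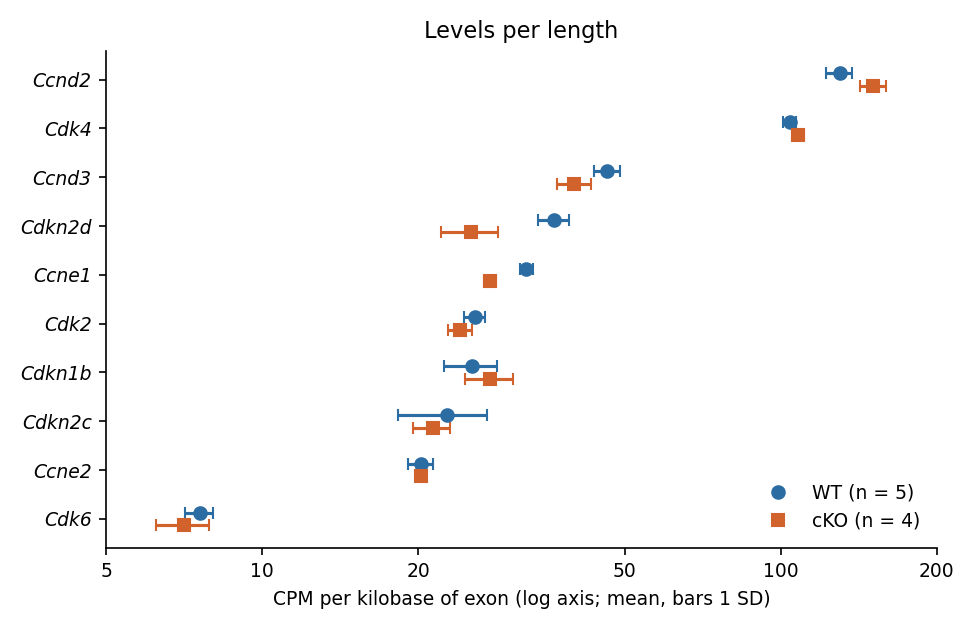
Mean level of each gene in CPM per kilobase of exon (log axis; bars are 1 SD) in WT (blue circles, n = 5) and cKO (orange squares, n = 4), ordered by the WT mean. Ccnd2 and Cdk4 are the highest in both genotypes, Cdk6 the lowest, and the marks of Cdkn2d are the farthest apart.

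Within pairs of genes with like roles, the mean shares differed between genotypes, but only the share of Ccne1 showed no overlap between samples. Ccnd2 made up 73.7% ± 2.04 (SD, n = 5) of the length-scaled RNA of Ccnd2 and Ccnd3 in WT, against 79.0% ± 2.09 (SD, n = 4) in cKO. The WT shares were 77.0%, 73.3%, 71.8%, 74.1% and 72.3% and the cKO shares 76.4%, 81.5%, 79.2% and 78.9%, in the order of replicates, so that WT 1 and cKO 2 overlapped. By the longest coding transcript the shares were 50.1% and 57.5%. Ccne1 made up 60.4% to 63.5% of the E-type cyclin RNA in WT and 56.4% to 58.4% in cKO, with no overlap. Cdkn2c made up 38.1% ± 3.30 (SD, n = 5) of the RNA of the 2 INK4 genes in WT and 45.8% ± 3.08 (SD, n = 4) in cKO, and only the highest WT sample (WT 9, 42.2%) passed the lowest cKO sample (cKO 2, 41.3%). For Cdk6 within Cdk4 and Cdk6 the shares were 6.81% ± 0.521 (SD, n = 5) and 6.14% ± 0.643 (SD, n = 4), a difference close to the spread. These shares restate the levels given above and are a description, with no test.

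**Figure D4:**
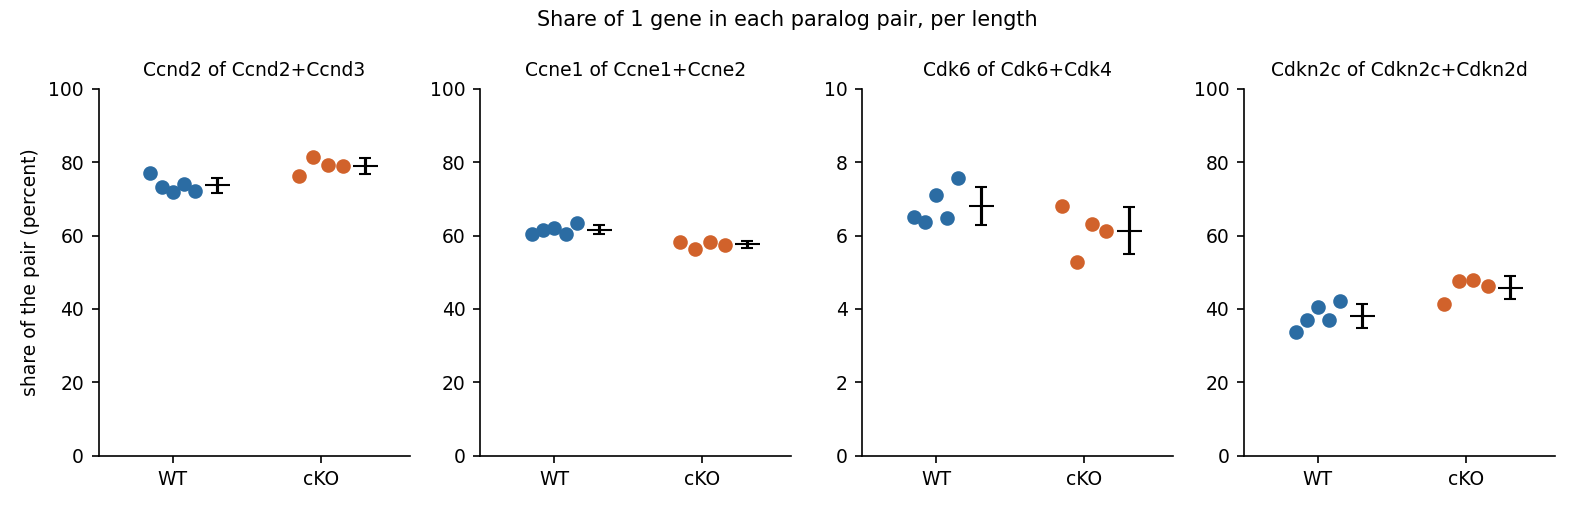
Share of 1 gene in the summed length-scaled level of each pair (percent; the axis of Cdk6 ends at 10) in each WT (blue) and cKO (orange) sample, with mean and SD in black. The cKO shares are higher on average for Ccnd2 and Cdkn2c and lower for Ccne1, whose points do not overlap between genotypes.

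Other genes of the G1 pathway were read from 7 lists with 53 genes, of which 52 were tested, 2 were called higher and 8 lower in cKO, and 42 did not pass, beside 15.8% called over all genes. The number of these genes called depended on single samples. It was 3 without cKO 6, and 5 without WT 4 and also without cKO 8. It was 6 without WT 9 and also without cKO 7, and 17 without WT 1. With upper-quartile scaling 3 were higher and 4 lower.

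Of the 13 pocket protein, E2F and DP genes, 1 rose, 3 fell and 9 did not pass (median log2 difference -0.05). The activator gene E2f2 was at 155, 169, 220.0, 181 and 219 CPM in WT 1, 3, 4, 5 and 9 and at 138, 119, 147 and 138 CPM in cKO 2, 6, 7 and 8, with no overlap. The log2 difference was -0.48 (SE 0.104, edgeR adjusted p = 0.0116). E2f1, the activator that pocket proteins hold in check, fell by 0.21 from 80.8 to 69.7 CPM (adjusted p = 0.0216), and E2f8, an atypical repressor of the family, by 0.28 from 126 to 103 CPM (adjusted p = 0.0399). E2f5, a repressor, rose by 0.37 from 7.35 to 9.51 CPM (adjusted p = 0.0195). The call of E2f2 held in all 19 other settings, while single libraries decided the others. E2f1 lost its call without WT 4, cKO 6 or cKO 7 (adjusted p from 0.0515 to 0.0720), and with offsets for GC and length (0.0532). E2f5 lost it without cKO 6 (0.0685) or cKO 8 (0.0605), and E2f8 without any 1 of WT 3, WT 4, WT 9, cKO 2, cKO 6 or cKO 8 (0.0553 to 0.115) and with upper-quartile scaling (0.0530).

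Of the 6 genes of the MuvB core, which with pocket proteins forms the repressive DREAM complex, 2 fell and 4 did not pass (median -0.07). These were Rbbp4, a histone-binding subunit, from 454 to 418 CPM (-0.12 on the log2 scale, edgeR adjusted p = 0.0295), and Lin54, the DNA-binding subunit, from 75.0 to 66.9 CPM (-0.17, adjusted p = 0.0350). Each lost its call in 8 of 19 other settings, among them those without WT 4, WT 9, cKO 6, cKO 7 or cKO 8, and in Rbbp4 also without WT 3 and in Lin54 without WT 5 (adjusted p of at most 0.0893). Of the 6 genes of the CDK-activating kinase and the Cdc25 phosphatases, which switch CDKs on, the phosphatase gene Cdc25b fell from 135 to 112 CPM (-0.28, adjusted p = 0.0437, lost in 11 of 19 other settings, with adjusted p up to 0.131) and 5 did not pass. The call of Cdc25b held among the left-out samples only without WT 1 or cKO 2.

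None of the 10 ubiquitin ligase genes that act on G1 cyclins or p27 passed edgeR's test (0 higher and 1 lower at unadjusted p under 0.05), and their differences lay between -0.09 and 0.08, with a median of -0.01. Ambra1, which directs D-type cyclins to degradation, had means of 103 and 97.0 CPM, WT then cKO (adjusted p = 0.106), and Cul1, a scaffold of these ligases, at 148 and 156 CPM (adjusted p = 0.197). None of the 5 genes of later cyclins and Cdk1 passed in edgeR either (0 higher and 2 lower at unadjusted p under 0.05), though all 5 differences were below 0, with a median of -0.14. Ccna2, the S phase cyclin, had means of 429 ± 28.6 CPM (SD, n = 5) and 389.8 ± 14.8 CPM (SD, n = 4), WT then cKO (adjusted p = 0.0825, or 0.0442 without WT 1), and Ccnb2, a mitotic cyclin, at 125 and 109 CPM (adjusted p = 0.117).

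None of the 4 tested genes among the other G1 cyclins and CDK inhibitors passed in edgeR (1 higher and 0 lower at unadjusted p under 0.05, median 0.21). Cdkn1a, the p53-induced inhibitor p21, was at 217, 167, 109, 150 and 104 CPM in WT 1, 3, 4, 5 and 9 and at 229, 254, 184 and 219 CPM in cKO 2, 6, 7 and 8 (0.57 on the log2 scale, SE 0.189, adjusted p = 0.0637). WT 1 was inside the cKO range and the other WT samples below it, and without WT 1 the difference was 0.75 (adjusted p = 0.00710). Cdkn1a also passed in 4 settings that kept WT 1, namely no count filter (adjusted p = 0.0303), limma-voom (0.0473), limma-voom with sample weights (0.0380) and 1 surrogate variable (0.00317, with a log2 difference of 0.35). Over all 19 other settings the adjusted p ran from 0.00317 to 0.167. Cdkn2a, the locus of p16INK4a and p19ARF and a known Polycomb target, was barely detected in either genotype (0.517 and 0.777 CPM, adjusted p = 0.233), and Cdkn2b was below the filter.

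Of the 8 upstream transcription regulators, 1 rose, 2 fell and 5 did not pass (median 0.07). Foxo1, a forkhead factor of T cell quiescence that activates Cdkn1b, fell by 0.23 (SE 0.044, edgeR adjusted p = 0.00623) from 280 to 238 CPM, and the related Foxo4 by 0.29 from 37.7 to 30.8 CPM (adjusted p = 0.0162). Bmi1, a subunit of Polycomb repressive complex 1 that represses Cdkn2a, rose by 0.31 (SE 0.062, adjusted p = 0.00736). Its levels were 62.3, 53.9, 51.8, 57.3 and 52.0 CPM in WT 1, 3, 4, 5 and 9 and 63.6, 72.7, 71.8 and 67.5 CPM in cKO 2, 6, 7 and 8, without overlap. The call of Foxo4 was lost without cKO 6 (adjusted p = 0.0551), and those of Foxo1 and Bmi1 held in all 19 other settings.

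**Figure D5:**
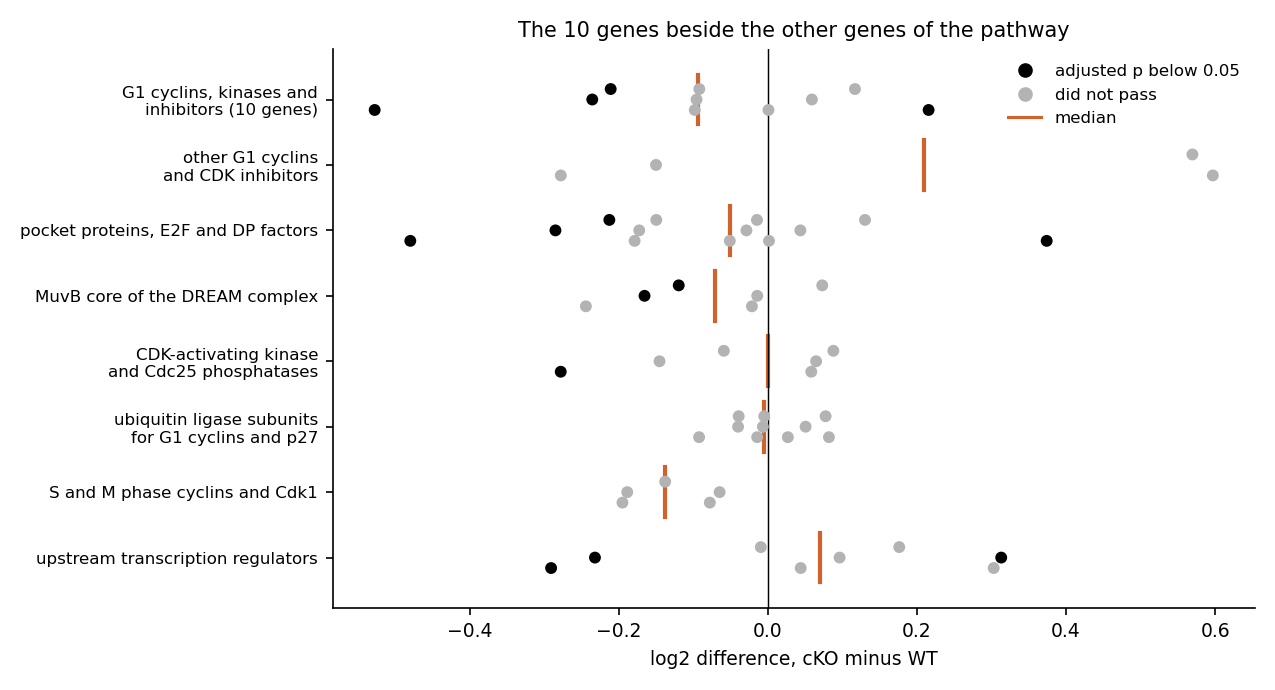
Log2 difference between genotypes (horizontal axis, cKO minus WT) of each tested gene in the 10 G1 genes and the 7 other lists, black where the edgeR adjusted p was below 0.05, with the median of each list as an orange line. The medians lie between -0.14 and 0.21, and the later cyclins and Cdk1 are all below 0 with no call.

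The genes with the most similar pattern were sought for the 2 members with the smallest p-values, by Pearson's r of log2 CPM over 9 samples that share the genotype difference. For Ccne1 these were Tmprss13 (r = 0.997), Nbeal2 (r = 0.991) and Tmem173 (r = 0.990). Tmprss13 was barely detected in cKO, with means of 1.47 CPM in WT and 0.155 CPM in cKO. For Cdkn2d the most similar genes were Ctnnbl1 (r = 0.987), Vav1 (r = 0.986) and Csnk1g2 (r = 0.986). Over deviations from the genotype means, which remove that difference, none of these genes was again among the 3 most similar. There the list for Ccne1 held Zfp518a (r = 0.981), Slfn3 (r = 0.978) and Cnr2 (r = 0.968), and that for Cdkn2d held Tulp3 (r = 0.981), Lef1 (r = 0.975) and Laptm5 (r = 0.965). With 9 samples and 14693 genes to choose from, such values describe these libraries only.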

How the data were processed

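Per the labels, mRNA-enriched stranded libraries (KAPA kit) were made from RNA of 5 WT and 4 cKO samples. The authors deposited raw read counts per Ensembl gene, whole numbers in a column for each sample. Base calling with bcl2fastq 2.17 and the build mm10 are named in the submitters' processing notes. Which aligner, counter, strand setting and annotation were used is not given in the sources used here. Columns were matched to samples by title, and symbols, positions and lengths came from GENCODE M21 (37693 of 39017 IDs).

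The counts were tested with edgeR 4.0.16 in R 4.3.3 (TMM, filterByExpr, quasi-likelihood F test, two-sided, no covariate, adjusted p below 0.05 over all 14693 genes). Standard errors were taken from the log2 fold change and the F value. No 2 samples of a group agreed within sampling noise (chi-square per gene from 3.34 to 20.3). Alternatives were DESeq2 1.42.0, limma 3.58.1 (voom, with and without sample weights), sva 3.50.0, other scalings and filters, robust fitting, offsets on GC content and length, and leaving out each sample, and for levels and shares other gene lengths (the longest coding transcript was added after seeing the data). The fits to all samples, except that with a surrogate variable, were also run on simulated counts, with outcomes not reported here. Count filters and left-out samples were not part of the simulation.

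The 10 genes, the 7 pathway lists, the marker lists (T, CD8 T, gamma-delta T, B and plasma, neutrophil, dendritic, macrophage and monocyte, erythroid, natural killer, stroma and vessel cells) and the rules were chosen with earlier results of these data known. Named were all 10 genes, Kdm6a, up to 4 called genes per pathway list (or 2 with the smallest p), the most abundant markers and, for the 2 members with the smallest p, the 3 most similar genes. Genes overlapping a member are named as overlaps, and Ccnd1 was named after its values were seen.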

Additional observations from a re-analysis of the deposited data

Results flagged for a closer look

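Ambra1, a gene that directs D-type cyclins to degradation, was at 97.1 CPM in WT 3, away from the other WT samples at 104 to 106 CPM, and inside the cKO range of 94.6 to 98.8 CPM. This was the 1 outlying sample found in 62 groups of 4 or 5 samples examined with Dixon's criterion, by which chance alone flags about 1 in 20 groups. None of the 10 G1 genes had an outlying sample by this criterion.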

How the results depend on the processing

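Ccnd2, Ccne1 and Cdkn2d kept their calls and directions under all 19 alternatives, and Ccnd3 kept its direction under all and its call under 13. The number of the 10 genes called was 4 under 9 of the 10 alternatives that used all samples and 3 with GC and length offsets, and 3 to 4 with 1 sample left out. The log2 difference of Ccne2 ran from -0.0306 to 0.0228 with 1 sample left out, and it was below 0 with no count filter (-0.00278), sample weights in limma-voom (-0.00749), 1 surrogate variable (-0.0237), GC and length offsets (-0.0887), and without cKO 6 (-0.00666), cKO 8 (-0.00636) or WT 9 (-0.0306), and that of Cdkn2c was 0.0890 with 1 surrogate variable. The cause was not tested. With 1 sample left out, all genes called numbered 1263 to 2933 against 2324 (1263 without cKO 6, 1504 without cKO 8, 1528 without WT 4), and called genes of the other pathway lists 3 to 17 against 10. The share of Cdk6 differed by -1.96 percentage points with no length scaling, against -0.669, and the median WT level of the 10 genes was 41.6 CPM per kilobase with the longest transcript or the longest coding transcript, against 29.0 with all exons. The median WT level moved because the lengths are shorter. No paired analysis was possible because the replicate numbers 1 to 9 are each used once and pair no samples. Each of the 10 genes had at least 805 counts per sample, and the parts of counting error and of other variation in the spread were not separated.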

Other observations

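Within the WT samples, WT 4 and WT 9 stood together in several of these genes. They held the 2 highest WT levels of Cdkn2c (72.6 and 74.7 CPM, the others 48.8 to 56.1), Cdkn2d (62.5 and 60.0 CPM), Cdk2 (166 and 166 CPM), E2f2 (220.0 and 219 CPM, the others 155 to 181), E2f8 (137 and 145 CPM) and Cdc25b (149.7 and 153 CPM), and the 2 lowest WT levels of Cdkn1a (109 and 104 CPM, the others 150 to 217). WT 1 had the lowest WT level of Cdkn2c, Cdkn1b, Cdk2, Ccne1, Ccnd3, E2f2, E2f1, E2f8 and Cdc25b and the highest of Ccnd2 and Cdkn1a. The labels give no property that sets these 3 samples apart. These genes were chosen for naming after their values were seen, and no test was made.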
